A study of Mus musculus with 24 samples.

Results

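Male brain regions labelled MG-cKO were set against male brain regions labelled WT. The comparison took all regions of the second scan whose animal group was MG-cKO or WT, which gave 8 of the 24 regions in the series. The 4 MG-cKO regions carried the numbers 5 to 8 on that scan and are called MG-cKO regions 1 to 4 here, and the 4 WT regions carried 9 to 12 and are called WT regions 1 to 4. The title of the series names macrophage Lyn kinase and subarachnoid haemorrhage (SAH), a bleed into the space around the brain, and the design text calls the WT animals WT-SAH. Whether the MG-cKO animals had the same bleed is implied by the title and not spelled out in a label. The labels do not expand MG-cKO or BMM-cKO, and the deleted allele, the Cre line, the strain, the age and the time after SAH were not given in the sources used here. The design text describes 4 regions per brain slice, so the 4 regions of a group may come from 1 slice of 1 animal, and a difference between groups then cannot be told apart from a difference between slices.

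The assay was the GeoMx digital spatial profiler, in which barcoded probes bind RNA on a tissue section and ultraviolet light releases the barcodes of a chosen region for counting. Staining for Tmem119, a surface protein of microglia, and for Iba-1, a calcium-binding protein of microglia and macrophages that the gene Aif1 encodes, guided the choice of regions. A level is the signal of a target divided by that of the region's negative probe, which has no target in the mouse, so that a level near 1 is background. Changes are log2 changes of MG-cKO over WT after each region was centred on its median target, from limma with p-values adjusted over all 9981 tested targets. Every p-value over regions is too small if regions share an animal.

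Lyn encodes a Src-family tyrosine kinase that relays signals from surface receptors of myeloid and B cells. Neurons of the lateral hypothalamus, a brain area that regulates feeding, arousal and sleep, make peptides that few other neurons make. Melanin-concentrating hormone, from the precursor gene Pmch, and orexin, from Hcrt, mark separate but intermingled sets of these neurons and reach high RNA levels within single cells.

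The regions were labelled as macrophage but were mixed brain tissue by their transcripts. Of 24 pan-neuronal genes, 15 in MG-cKO and 16 in WT regions averaged above 2 times the negative probe. Of 25 genes of homeostatic microglia 2 did so in each group, and of 12 genes of border macrophages, 15 of monocytes, 14 of neutrophils and 14 of T and B cells none did. Tmem119 had levels of 0.685 to 0.936 in MG-cKO and of 0.687 to 0.877 in WT regions, which is background in both groups. Total tags ranged from 2423752 to 3736541 in MG-cKO and from 1839154 to 4589359 in WT regions. Levels above 2 were reached by 2.39% ± 1.00 of targets in MG-cKO and 2.32% ± 1.09 in WT regions (SD, n = 4 regions each, two-sided exact permutation p = 0.971, smallest possible 0.0286). MG-cKO region 1 stood apart from its group. Only 0.902% of its targets passed that level, against 2.71% to 3.09% in the other MG-cKO regions. Over the 9981 targets it correlated with those regions at r = 0.777 to 0.798 and with WT region 1 at 0.859, while the other MG-cKO regions correlated among themselves at 0.849 to 0.892. Targets share the depth of their library, so these coefficients describe the libraries and carry no p.

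The largest difference lay in Pmch. Its level was 7.55, 5.05, 11.8 and 4.22 times the negative probe in MG-cKO regions 1 to 4, against 0.971, 0.833, 0.901 and 0.858 in WT regions 1 to 4. All MG-cKO regions were above background and all WT regions were at it, with a wide gap between the groups. Behind these levels stood, by inference from the step between deposited values, 462 to 1713 tags per MG-cKO region and 67 to 204 tags per WT region, of the order of the median target (113 to 181 tags in MG-cKO, 87 to 220 in WT). The mean was 7.14 ± 3.38 in MG-cKO and 0.891 ± 0.0603 in WT regions (SD, n = 4 each). The log2 change was 2.89 ± 0.24 (SE, limma adjusted p = 6e-09), or 7.44-fold. Leaving out any 1 of the 8 regions gave 2.63 to 3.12, and every such fit kept the call. A larger number of Pmch neurons in a region and more Pmch RNA per neuron cannot be told apart in values of whole regions.

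Hcrt was also higher in MG-cKO regions, but unevenly. It reached 4.74, 0.655, 1.82 and 17.95 times the negative probe in MG-cKO regions 1 to 4, against 0.719, 0.759, 0.661 and 0.634 in WT regions 1 to 4. MG-cKO region 4 held the highest value, regions 1 and 3 were above every WT region, and region 2 lay among the WT values. The order of the MG-cKO regions differed from that of Pmch, which was highest in region 3 and lowest in region 4. The log2 change was 2.20 ± 0.52 (SE, limma adjusted p = 0.0447). The call rested on the full set of regions. The change was 1.38 (adjusted p = 0.184) without MG-cKO region 4 and 1.98 (0.0532) without MG-cKO region 1. It was 2.48 (0.0962) without MG-cKO region 3 and 2.97 (0.000557) without MG-cKO region 2. Without WT regions 1 to 4 in turn it was 2.24 (0.0545), 2.24 (0.0743), 2.16 (0.134) and 2.17 (0.123). With values divided by the negative probe in place of centring, the change of Hcrt was 2.19 (limma adjusted p = 0.0813). With only targets above 1.5 times the negative probe it was 2.17 (0.471).

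Pdyn, the precursor of the dynorphin opioid peptides, which orexin neurons also make, rose to a smaller extent. Pdyn was at 1.40, 1.59, 1.64 and 1.87 times the negative probe in MG-cKO regions 1 to 4, against 1.08, 0.995, 1.18 and 1.28 in WT regions 1 to 4. The groups did not overlap, and all values were below 2. The log2 change was 0.53 ± 0.11 (SE, limma adjusted p = 0.0205). The size stayed at 0.47 to 0.60 when 1 region was left out. The adjusted p rose above the threshold of 0.05 without MG-cKO regions 2 (0.0658), 3 (0.0878) or 4 (0.106) and without WT regions 2 (0.0631) or 3 (0.0752). It did so too with values divided by the negative probe (0.0779) and with only targets above 1.5 times the negative probe (0.0607).

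**Figure D1:**
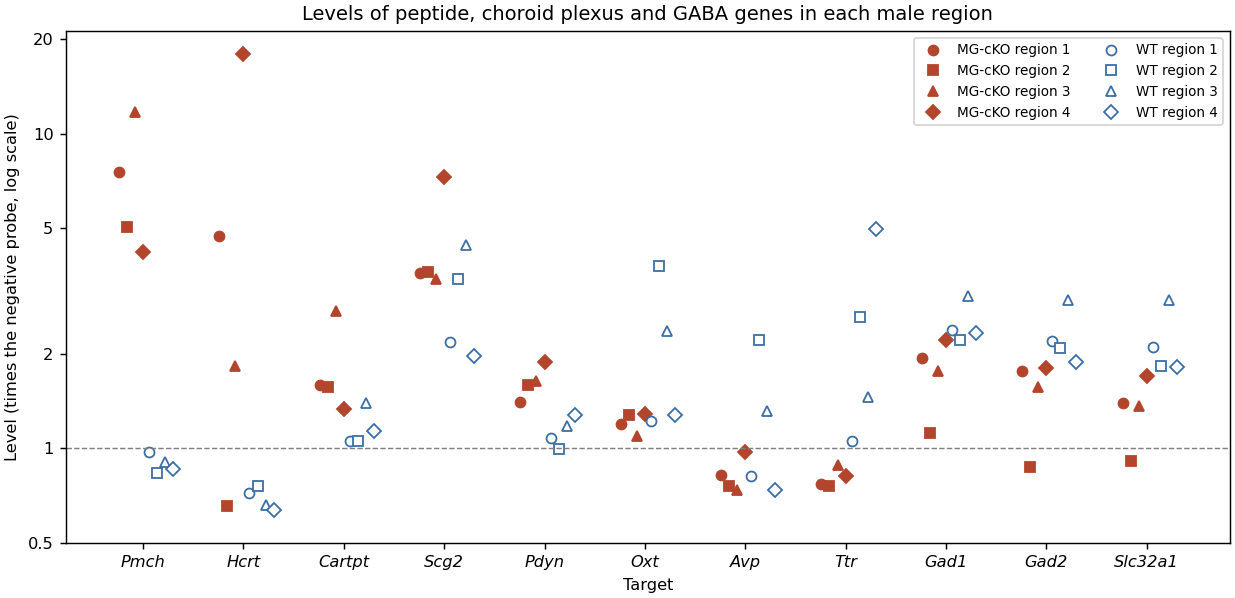
Level of 11 targets in each male region, in multiples of the negative probe on a log axis, with filled symbols for the 4 MG-cKO regions, open symbols for the 4 WT regions and a dashed line at 1. Pmch lies at 4.22 to 11.8 in MG-cKO and at 0.833 to 0.971 in WT regions, while Ttr and Slc32a1 also separate the groups but in the opposite direction.

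Pmch, Hcrt and Pdyn were the 3 called genes among 12 tested of a list of 15 genes of the lateral hypothalamus. Over all 9981 tested targets 0.441% were called higher and 0.0401% lower. The median change of the list was 0.23, against 0.01 over all tested targets. The gene lists were chosen with earlier results of these data known, so these values describe the list and give it no independent support. Summed over the 15 genes the level was 22.4 to 39.9 in MG-cKO and 16.6 to 17.8 in WT regions, sums that include Pmch and Hcrt. Cartpt, the precursor of the CART peptides that many melanin-concentrating hormone neurons also make, had 1.59, 1.56, 2.74 and 1.33 in MG-cKO regions, against 1.05, 1.06, 1.39 and 1.13 in WT regions. MG-cKO region 3 was highest, as for Pmch, and MG-cKO region 4 lay below WT region 3. Its log2 change of 0.60 ± 0.17 (SE) missed the threshold (limma adjusted p = 0.0790). Gal, the precursor of galanin, averaged 1.38 ± 0.165 in MG-cKO and 1.47 ± 0.0677 in WT regions (adjusted p = 0.806). The list also holds the peptides' receptors, and no receptor gene was called.

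A second list held 21 genes of the hypothalamus as a whole, of which 10 were tested and none called, with a median change of 0.08 and summed levels of 21.9 to 24.6 in MG-cKO and 22.9 to 28.3 in WT regions. Oxt, the precursor of oxytocin, was at 1.20, 1.27, 1.09 and 1.28 in MG-cKO regions 1 to 4, against 1.22, 3.81, 2.36 and 1.27 in WT regions 1 to 4. WT regions 2 and 3 stood out, and the other 6 regions lay between 1.09 and 1.28. The log2 change was -0.66 ± 0.18 (SE, limma adjusted p = 0.0790), and without WT region 1 it was -0.86 (0.0202), without WT region 2 -0.34 (0.191). Avp, the vasopressin precursor, chosen after its values were seen and too low for the main fit, was highest in the same 2 WT regions, at 2.21 and 1.31 times the negative probe. The other 6 regions had 0.734 to 0.969. Tac2, the neurokinin B precursor, also chosen after its values were seen, was at 2.28 and 2.01 in WT regions 1 and 4, and at 0.805 to 1.29 in the other regions. Whether the regions of the groups covered the same part of the hypothalamus was not tested.

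No other tested peptide precursor was called. Of 18 tested genes in a list of 29 neuropeptide and granin precursors, 3 were called higher (Pmch, Hcrt and Pdyn) and 0 lower, with a median change of 0.21. Scg2, a granin of dense-core vesicles, had 3.60, 3.64, 3.45 and 7.27 in MG-cKO regions, against 2.18, 3.46, 4.43 and 1.97 in WT regions. MG-cKO region 4 was far above the rest, and the groups overlapped (0.59 ± 0.33, SE, limma adjusted p = 0.406). Penk, the enkephalin precursor, averaged 2.34 ± 0.295 in MG-cKO and 2.32 ± 0.178 in WT regions (SD, n = 4 each), with a log2 change of 0.02 ± 0.16 (limma adjusted p = 0.980). Chgb, another granin, averaged 2.34 ± 0.412 in MG-cKO and 2.25 ± 0.434 in WT regions. Of 8 tested genes of opioid signalling, which comprised the precursors, their receptors and processing enzymes, Pdyn was the only one called.

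In all, 44 of 9981 tested targets were higher in MG-cKO regions and 4 were lower, or 0.481% in either direction, and 1498 had an unadjusted p under 0.05. Pmch and Hcrt were the 2 rises over 2-fold. The other 42 rises were 1.21- to 1.45-fold, and 35 of the 44 averaged below 1.5 times the negative probe in MG-cKO regions. Among the 508 targets that averaged above 2 times the negative probe in either group, Pmch and Hcrt were the 2 called. Both are among the 508 only by their MG-cKO means (7.14 and 6.29, against 0.891 and 0.693 in WT). Their place there is therefore no separate support for them. The groups did not overlap for 28 of the 44 rises and for all 4 falls, against 1.79% and 3.07% of all tested targets that were higher and lower without overlap. The calls were picked by the same group difference, so this share is no separate support for them. The number of calls depended on single regions. It was 319 without MG-cKO region 1, and 5, 2 and 4 without MG-cKO regions 2, 3 and 4. Without WT regions 1 to 4 in turn it was 88, 24, 1 and 3.

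**Figure D2:**
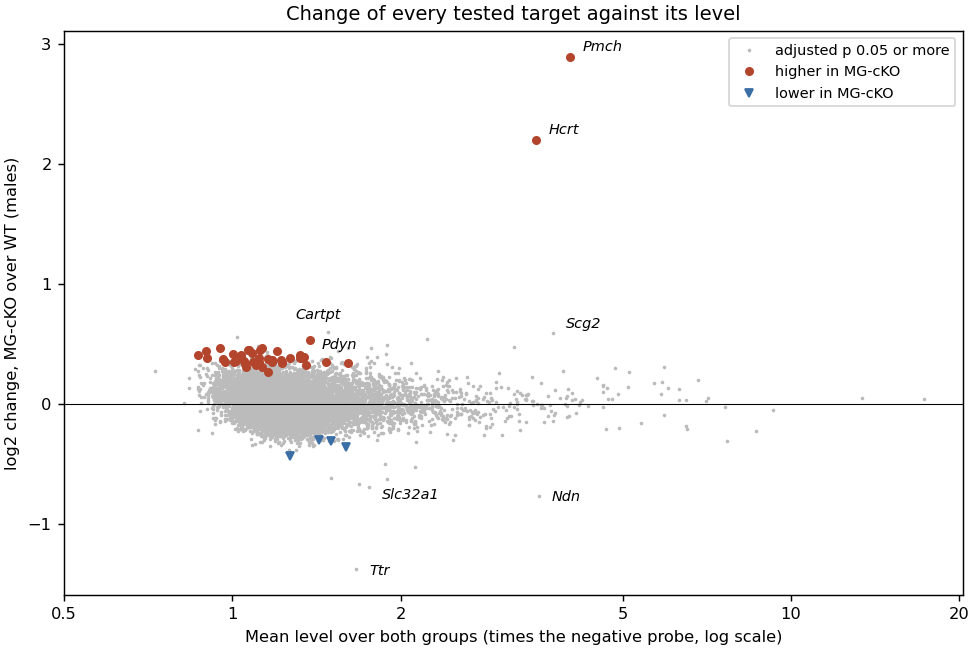
Log2 change of MG-cKO over WT (vertical axis) against the mean level over both groups in multiples of the negative probe (horizontal log axis), with 1 point for each of 9981 tested targets. Of the called targets, 44 are higher and 4 are lower in MG-cKO regions, and all but Pmch and Hcrt lie at low levels with changes of less than 0.6.

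Bmper, a secreted protein that binds bone morphogenetic proteins (BMPs), was at 1.01, 1.26, 1.04 and 1.10 times the negative probe in MG-cKO regions, against 0.804, 0.833, 0.745 and 0.815 in WT regions. The groups did not overlap, but both lay near background. The log2 change was 0.47 ± 0.08 (SE, limma adjusted p = 0.0120), and the call was lost without MG-cKO region 2 (0.0553) or WT region 3 (0.0668). Fitted on the 8 regions alone, Bmper also missed the threshold (adjusted p = 0.0576). Of 9 tested genes of BMP signalling Bmper was the only one called, and the list's median change was 0.04. Bmp5, a BMP ligand, averaged 1.27 ± 0.141 in MG-cKO and 1.09 ± 0.0776 in WT regions (0.23 ± 0.08, SE, adjusted p = 0.158).

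Bcl2, the inhibitor of apoptosis, was at 1.12, 1.24, 1.10 and 1.25 in MG-cKO regions, against 0.985, 0.958, 0.889 and 0.858 in WT regions. It was higher in every MG-cKO region, by 0.36 ± 0.08 on the log2 scale (SE, limma adjusted p = 0.0445). The call held without MG-cKO region 1 (0.0325) and without WT region 1 (0.0237), and was lost without any 1 of the other 6 regions (0.0631 to 0.136). With the 8 regions fitted alone, Bcl2 missed the threshold too (adjusted p = 0.101). It was the only call among 15 tested genes of cell death, whose median change was 0.04. Mlkl, the effector of necroptosis, averaged 2.17 ± 0.157 in MG-cKO and 2.39 ± 0.165 in WT regions (adjusted p = 0.515).

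The other large rises were spread over genes with no common list. Vmn1r198, Vmn2r109 and Vmn2r107, receptors of the vomeronasal organ, rose by log2 changes of 0.46 ± 0.09, 0.41 ± 0.08 and 0.39 ± 0.08 (SE, limma adjusted p = 0.0205, 0.0205 and 0.0339). Their levels were 1.12 to 1.73 in MG-cKO and 0.833 to 1.27 in WT regions. These 3 were the called members of 317 tested probes for keratin-associated proteins and for receptors of smell, taste and the vomeronasal organ, which brain tissue is not known to use widely. Of all tested targets 0.441% were called higher. The 95% range of the change of these 317 probes was -0.20 to 0.31, with a median of 0.04. Of the 44 rises 2 lay within it, but the rises were picked by this same change, so the count does not set them apart. Further rises of 0.40 to 0.46 on the log2 scale were those of Trim43b, Gm20764, Snx12, Trat1, Trim15, Ssx2ip, Tpst1, Wnt11, Vps37b and Als2cl (adjusted p = 0.0205 to 0.0438). Wnt11 encodes a secreted Wnt ligand, Snx12 a sorting nexin of endosomes and Tpst1 an enzyme that adds sulfate to tyrosines. The level of each of these 10 averaged 0.987 to 1.38 in MG-cKO and 0.749 to 1.03 in WT regions. Rhox7a, Stard3nl and Pawr had higher levels, with means of 1.79, 1.64 and 1.52 in MG-cKO and 1.42, 1.30 and 1.16 in WT regions, and changes of 0.34, 0.35 and 0.39. Gm21188 was at 1.23 to 1.69 in MG-cKO and 1.17 to 1.23 in WT regions, with a change of 0.33.

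The 4 falls were small. Zfp385b, a zinc finger protein, was at 1.09, 1.14, 1.03 and 1.03 times the negative probe in MG-cKO regions, against 1.30, 1.43, 1.73 and 1.41 in WT regions. Every MG-cKO region was below every WT region, and the log2 change was -0.43 ± 0.10 (SE, limma adjusted p = 0.0439). Dzip1, a protein of the cilium base, averaged 1.39 ± 0.101 in MG-cKO and 1.81 ± 0.224 in WT regions (-0.36 ± 0.08, adjusted p = 0.0439). Osbp, the oxysterol-binding protein, averaged 1.33 ± 0.0744 in MG-cKO and 1.67 ± 0.129 in WT regions (-0.31 ± 0.07, 0.0445). Zmynd12 averaged 1.28 ± 0.141 in MG-cKO and 1.58 ± 0.0991 in WT regions (-0.30 ± 0.07, 0.0439). Each fall lost its call without MG-cKO regions 2 or 3 or without WT regions 2, 3 or 4, with adjusted p from 0.0631 to 0.172, and all but Zmynd12 without MG-cKO region 4. With the 8 regions fitted alone, Zfp385b kept its call (0.0477), and Dzip1 (0.102), Osbp (0.128) and Zmynd12 (0.165) lost theirs. Without centring, the median target was 0.32 higher in MG-cKO regions on the log2 scale. There none of the 4 was called, and Osbp and Zmynd12 had changes of 0.00 and 0.01.

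Lyn itself was at background. Its level was 0.973, 1.05, 0.878 and 1.18 times the negative probe in MG-cKO regions, against 1.05, 1.01, 1.02 and 1.02 in WT regions. The groups overlapped, and the log2 change was -0.00 ± 0.09 (SE, limma adjusted p = 1.00). Where the probe lies relative to the deleted part of the gene was not given in the sources used here, so the level of Lyn is no check of the genotype. Of 17 tested genes around Lyn and the Src family, with their substrates, phosphatases and inhibitory receptors, none was called (median change 0.12). Fyn, a Src-family kinase that neurons and oligodendrocytes use, averaged 1.67 ± 0.0982 in MG-cKO and 1.58 ± 0.131 in WT regions (adjusted p = 0.573).

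Genes of microglia did not pass the test in either direction. Aif1, whose protein guided the choice of regions, was at 1.25, 1.85, 1.91 and 2.00 in MG-cKO regions, against 1.49, 1.39, 1.33 and 1.29 in WT regions. MG-cKO region 1 was below all WT regions and the other 3 were above them. The log2 change was 0.34 ± 0.10 (SE, limma adjusted p = 0.100), and without MG-cKO region 1 it was 0.47 (0.00616). None of 17 tested genes of homeostatic microglia was called, with a median change of -0.00. The complement subunit C1qb averaged 2.09 ± 0.312 in MG-cKO and 2.13 ± 0.235 in WT regions (-0.02 ± 0.09, adjusted p = 0.954). The cathepsin Ctss averaged 2.10 ± 0.387 in MG-cKO and 2.00 ± 0.231 in WT regions (0.08 ± 0.10, 0.805). The receptor Csf1r, on which microglia depend for survival, averaged 1.92 ± 0.299 in MG-cKO and 1.94 ± 0.241 in WT regions (-0.00 ± 0.09, 0.995). None of 14 tested genes of disease-associated microglia was called. Apoe, the lipid carrier that astrocytes make as well, averaged 9.12 ± 2.75 in MG-cKO and 9.41 ± 2.23 in WT regions.

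Most genes of the inflammatory lists were left out of the main fit, which took the targets above the median target. Of 29 genes of NF-kB and cytokines 7 were tested, of 20 of the Toll-like receptor 4 pathway 5, of 22 of the interferon response 7, and of 18 complement genes 7. None was called, and the medians were 0.00, -0.07, 0.08 and -0.02. In these lists only complement had members above 2 times the negative probe, with 1 in MG-cKO and 2 in WT regions. The members of these lists that the filter left out were fitted only in the alternative without the filter (19962 targets, 40 called). Which of those calls belong to these lists is not given here. Relb, a subunit of NF-kB, was at 1.18 to 1.38 in MG-cKO and 1.06 to 1.15 in WT regions, without overlap (0.25 ± 0.09, SE, limma adjusted p = 0.162). Of all tested targets 1.79% were higher without overlap. Ifit3, an interferon-induced gene, averaged 1.38 ± 0.148 in MG-cKO and 1.17 ± 0.0632 in WT regions (0.25 ± 0.08, adjusted p = 0.125). Of 9 tested genes of haem and iron none was called. Fth1, the ferritin heavy chain that stores iron, averaged 6.58 ± 1.94 in MG-cKO and 5.25 ± 0.696 in WT regions (0.31 ± 0.26, adjusted p = 0.637).

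**Figure D3:**
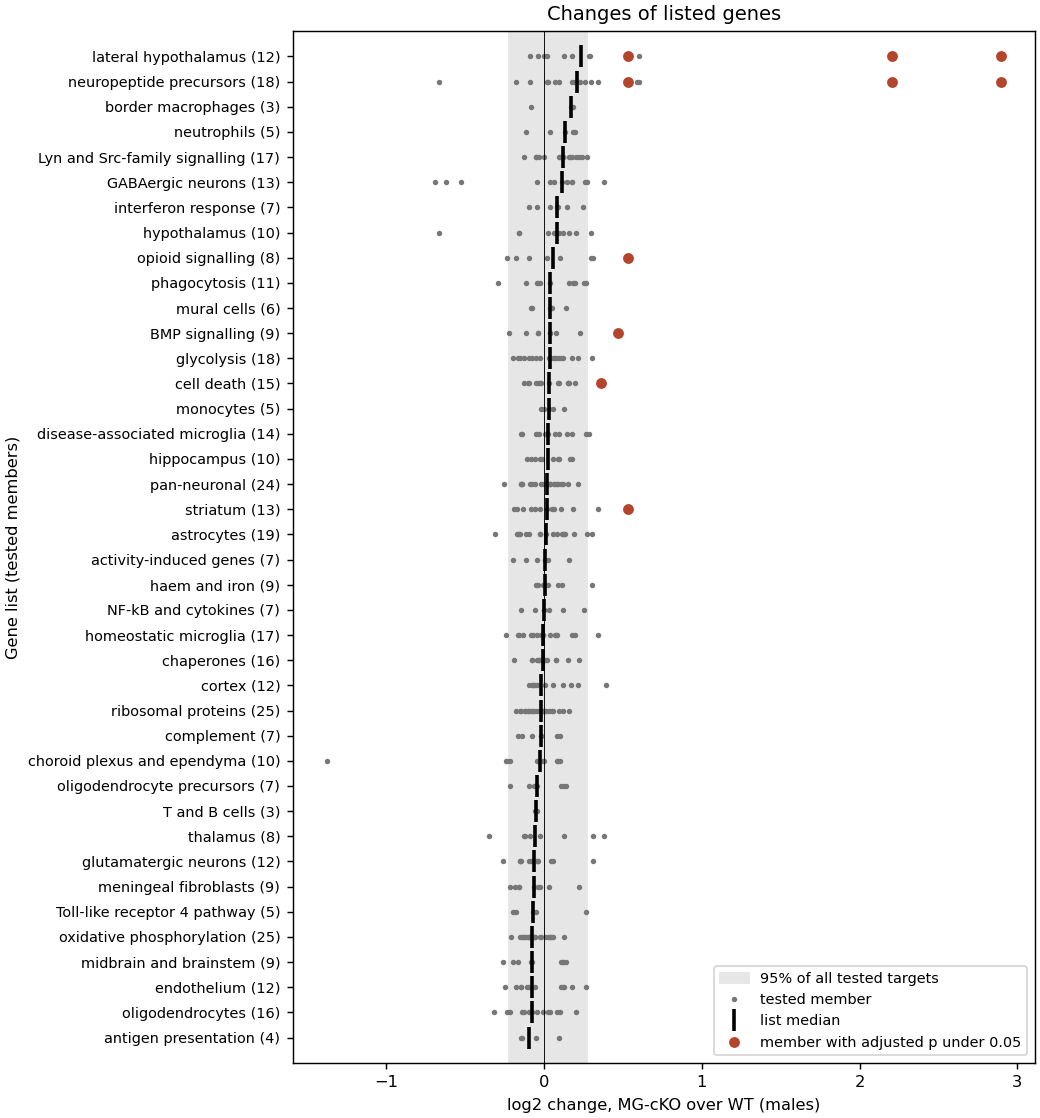
Log2 changes of MG-cKO over WT for the tested members of 40 gene lists (number in brackets), with a bar at each list's median, red points for called members and a grey band that holds 95% of all tested targets (-0.22 to 0.28). Called members occur in the lists that hold Pmch, Hcrt, Pdyn, Bmper and Bcl2, and list medians lie between -0.09 and 0.23.

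Of 24 tested pan-neuronal genes none was called, and their median change was 0.02. Snap25, a protein of synaptic vesicle fusion, averaged 4.84 ± 1.02 in MG-cKO and 4.36 ± 0.567 in WT regions (0.15 ± 0.33, SE, limma adjusted p = 0.892). Nrgn, a calmodulin-binding protein of forebrain neurons, had 1.65, 3.85, 3.51 and 2.04 in MG-cKO regions, against 2.28, 2.31, 2.40 and 2.05 in WT regions. The WT values were close together, and the MG-cKO values lay on both sides of them.

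The genes that make and load GABA were lower in MG-cKO regions without overlap, but did not pass the test. Slc32a1, the vesicular GABA transporter, was at 1.39, 0.908, 1.36 and 1.70 times the negative probe in MG-cKO regions, against 2.10, 1.83, 2.96 and 1.81 in WT regions (-0.69 ± 0.24, SE, limma adjusted p = 0.181). Gad1, an enzyme that makes GABA, was at 1.93, 1.11, 1.76 and 2.20 in MG-cKO regions, against 2.38, 2.21, 3.05 and 2.33 in WT regions (-0.52 ± 0.28, 0.379). Gad2, the second such enzyme, was at 1.76, 0.871, 1.56 and 1.80 in MG-cKO regions, against 2.19, 2.09, 2.96 and 1.88 in WT regions (-0.62 ± 0.26, 0.251). MG-cKO region 2 was lowest and WT region 3 highest for all 3 genes. These 3 were the only genes without overlap among 13 tested of the GABAergic list, where 3.07% of all tested targets were lower without overlap. The list's median change was 0.12, so the median and these genes differ in sign. Fitted on the 8 regions alone, Slc32a1 passed the threshold (adjusted p = 0.0477). In BMM-cKO males, set against the same WT regions, Slc32a1, Gad1 and Gad2 were called lower. The changes there were -0.60, -0.76 and -0.71 (limma adjusted p = 0.0405, 0.0225 and 0.0232), where 53.6% of all tested targets were called. Between MG-cKO and BMM-cKO males these genes did not pass the test (adjusted p = 0.530 to 0.815).

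The 3 uncalled targets of largest fall were Ttr, Ndn and Slc32a1. Ttr, the thyroid hormone carrier that the choroid plexus makes in bulk, had 0.767, 0.758, 0.885 and 0.813 in MG-cKO regions, against 1.06, 2.61, 1.45 and 4.99 in WT regions. All MG-cKO regions were below background level and WT regions 2 and 4 were highest. The log2 change of -1.38 ± 0.96 (SE) did not pass (limma adjusted p = 0.545), with an error taken from all 24 regions, and it passed when the 8 regions were fitted alone (0.00837). No gene of the choroid plexus and ependyma list was called (10 tested, median -0.03), and its summed level was 15.5 to 16.6 in MG-cKO and 16.4 to 22.2 in WT regions. Enpp2, another abundant choroid plexus transcript, had 1.45, 1.42, 1.52 and 1.78 in MG-cKO regions, against 1.57, 1.67, 1.72 and 2.33 in WT regions, with WT region 4 highest, as for Ttr. Ndn, an imprinted gene abundant in hypothalamic neurons, had 2.11, 2.59, 2.82 and 2.63 in MG-cKO regions, against 3.55, 5.47, 6.18 and 2.94 in WT regions. These groups did not overlap either (-0.76 ± 0.33, adjusted p = 0.276), where 3.07% of all tested targets were lower without overlap. The 3 uncalled targets of largest rise were Cartpt, Scg2 and Aipl1, a photoreceptor chaperone, which averaged 1.22 ± 0.273 in MG-cKO and 0.821 ± 0.107 in WT regions (0.56 ± 0.15, adjusted p = 0.0677) and passed without MG-cKO region 1 (0.70, 0.0119).

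A pair of further genes fell short of the threshold without overlap of the groups, where 3.07% of all tested targets were lower without overlap. Slc6a4, the serotonin transporter, was at 1.14 to 1.27 in MG-cKO and 1.33 to 1.58 in WT regions (-0.26 ± 0.07, SE, limma adjusted p = 0.0636). It passed without MG-cKO region 1 (0.0445) or WT region 1 (0.0473), and none of the 9 tested genes of its midbrain and brainstem list was called. Tjp1, a protein of tight junctions, was at 1.22 to 1.34 in MG-cKO and 1.39 to 1.77 in WT regions (-0.24 ± 0.07, adjusted p = 0.100). It passed without MG-cKO region 1 (0.0325), and none of the 12 tested endothelial genes was called.

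Glia and housekeeping genes varied more among regions of a group than between the groups. Astrocyte genes, of which 19 were tested and none called, deviated from their mean over the 8 regions by medians of -0.30, 0.29, 0.18 and -0.04 in MG-cKO regions 1 to 4, and of -0.19, 0.09, 0.14 and -0.09 in WT regions 1 to 4. Sparcl1, an astrocyte-secreted protein, had 4.78, 10.1, 9.31 and 6.22 in MG-cKO regions, against 5.71, 9.19, 8.90 and 6.73 in WT regions. Regions 1 and 4 were low and regions 2 and 3 high in each group, although the numbers do not pair regions across groups. The protease inhibitor Cst3, abundant in microglia and astrocytes, was likewise higher in regions 2 and 3 than in regions 1 and 4 of each group, with 4.20, 8.64, 8.11 and 6.62 in MG-cKO and 6.60, 9.37, 10.2 and 7.61 in WT regions. Oligodendrocyte genes ran the other way. Mobp, a myelin protein, had 5.26, 4.39, 3.16 and 7.29 in MG-cKO regions, against 5.85, 3.58, 3.26 and 6.44 in WT regions. None of 16 tested oligodendrocyte genes was called.

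None of 25 tested ribosomal protein genes, 25 of oxidative phosphorylation, 18 of glycolysis or 16 chaperones was called, and their medians were -0.02, -0.07, 0.04 and -0.00. Ribosomal protein genes deviated by -0.32 in MG-cKO region 1, the lowest, and by 0.25 in WT region 3, the highest. Rpl13, one of them, averaged 3.84 ± 0.684 in MG-cKO and 4.17 ± 0.870 in WT regions. Cox4i1, a subunit of cytochrome c oxidase, averaged 3.13 ± 0.546 in MG-cKO and 3.38 ± 0.771 in WT regions. The chaperone Hsp90ab1 averaged 3.43 ± 0.868 in MG-cKO and 3.27 ± 0.888 in WT regions.

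**Figure D4:**
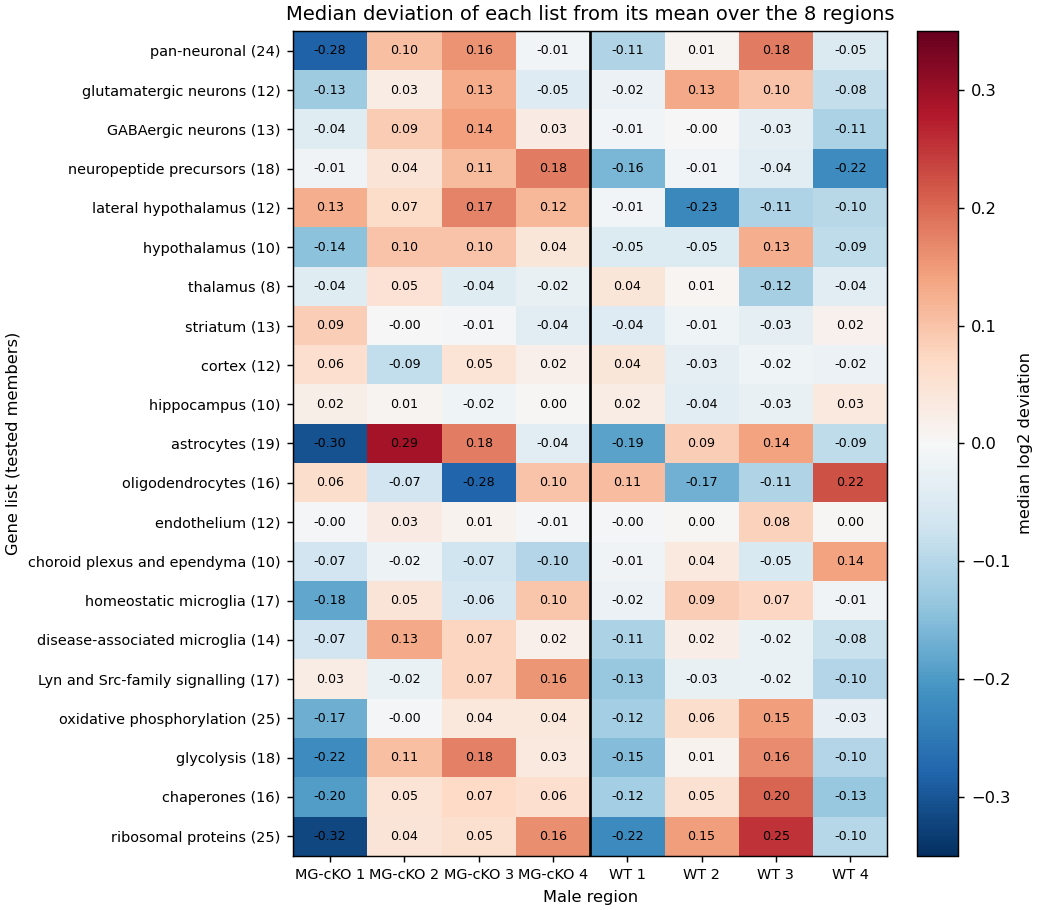
Median log2 deviation of the tested members of 21 gene lists from each member's mean over the 8 regions, by male region, with MG-cKO regions left of the vertical line and WT regions right of it. The lateral hypothalamus list is above 0 in the 4 MG-cKO regions (0.07 to 0.17) and below 0 in the 4 WT regions, while astrocyte, ribosomal and pan-neuronal genes are low in MG-cKO region 1. The lists were chosen with earlier results of these data known.

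The same contrast in females came from the third scan, so sex and scan cannot be told apart. The change of MG-cKO over WT in males minus that in females passed the test for 27.1% of the 9981 targets. For Pmch this difference was 2.80 ± 0.34 (SE, limma adjusted p = 1.3e-06). Pmch had levels of 0.742 to 0.860 in MG-cKO females and at 0.571 to 0.765 in WT females, which is background. Hcrt was likewise at background in both female groups, and its difference between males and females was 2.33 ± 0.74 (adjusted p = 0.0198). Pdyn went in opposite directions, with a log2 change of 0.53 ± 0.11 in males and -0.75 ± 0.11 in females (SE, difference 1.28, adjusted p = 9.69e-07). Pdyn was at 1.41 to 1.49 in MG-cKO females and at 1.73 to 2.62 in WT females, where its mean was highest of the 6 groups. Its mean was lowest in WT males (1.13). WT males also had the lowest mean of the 6 groups for Bmper (0.799) and Bcl2 (0.923).

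All 44 rises of the male comparison passed the test of the difference. In the female comparison 0 of them were called higher and 15 lower, where 17.9% of all tested targets were called higher and 11.9% lower. Their median change in females was -0.19, and 4 of the 44 were positive. Bcl2 fell in females by a log2 change of -0.39 ± 0.08 (SE, limma adjusted p = 0.00107). Of the 4 falls, 3 passed the test of the difference and Zfp385b was called higher in females (0.45 ± 0.10, adjusted p = 0.0012). The rises were chosen by the male change, which enters the difference, so their count is a description of it.

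**Figure D5:**
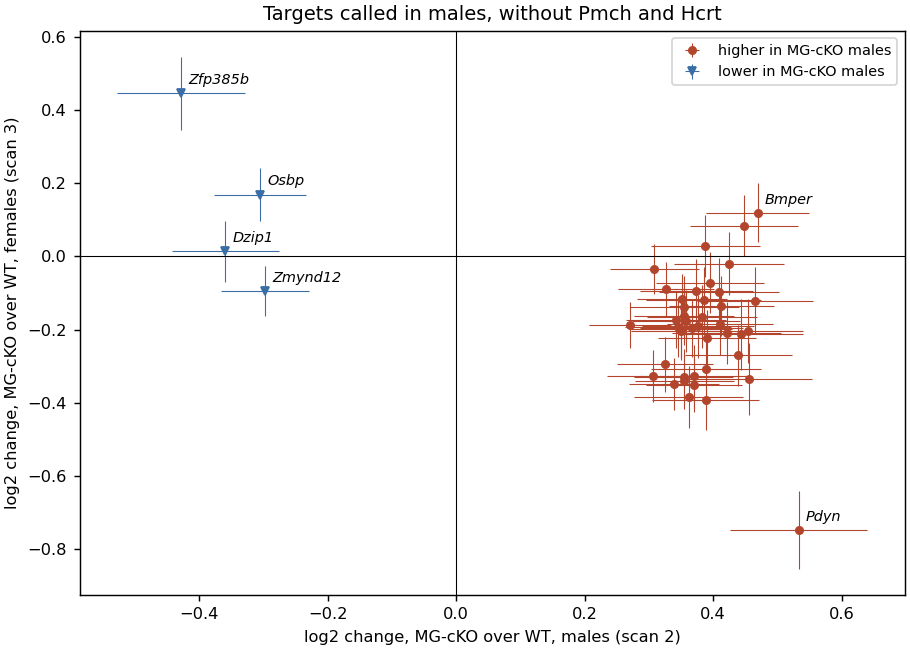
Log2 change of MG-cKO over WT in males (horizontal axis) and in females (vertical axis), with bars of 1 SE, for the targets called in males other than Pmch and Hcrt. Most rises in males, at 0.27 to 0.53, lie below 0 in females, and Pdyn lies farthest below at -0.75.

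Genes of several lists had a different change in males than in females. Levels above 2 were reached by 4.25% to 7.99% of targets in MG-cKO female regions and by 2.69% to 3.49% in WT female regions. In males the means were 2.39% in MG-cKO and 2.32% in WT regions. Whether this imbalance in females enters the differences was not tested. Of 24 tested pan-neuronal genes 18 had a lower change in males than in females and 0 a higher one, where 14.2% and 12.8% of all targets did. The counts were 20 of 25 for oxidative phosphorylation and 13 of 18 for glycolysis, all lower in males, and 9 of 13 for striatal genes, among them Pdyn, and 8 of 17 for homeostatic microglia, all higher in males. Snap25 changed by 0.15 ± 0.33 in males and 2.37 ± 0.33 in females (SE, limma adjusted p of the difference = 0.00124), and Nrgn by 0.22 ± 0.23 in males and 3.19 ± 0.23 in females (2.99e-07). Tac1, the substance P precursor of striatal neurons, changed by 0.35 ± 0.11 in males (adjusted p = 0.148) and had a difference of 1.35 between males and females (1.25e-06).

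The BMM-cKO males were on the same scan as the MG-cKO and WT males. Pmch was at 7.55, 5.05, 11.8 and 4.22 in MG-cKO males, against 1.57, 1.62, 3.39 and 4.20 in BMM-cKO males, a log2 difference of 1.41 ± 0.24 (SE, limma adjusted p = 8.44e-05). The lowest MG-cKO region and the highest BMM-cKO region were nearly equal. In this comparison 38.5% of all tested targets were called. Hcrt reached 3.58 in BMM-cKO region 4 and 0.852 to 1.31 in the other 3, and MG-cKO males differed from BMM-cKO males by 1.12 ± 0.52 (adjusted p = 0.0872). Pdyn averaged 1.63 ± 0.194 in MG-cKO and 1.58 ± 0.171 in BMM-cKO males (0.03 ± 0.11, adjusted p = 0.844), and Bmper 1.10 ± 0.114 in MG-cKO and 1.12 ± 0.0737 in BMM-cKO males (-0.03 ± 0.08, 0.797). Neither gene passed the test between the 2 knockout labels. Trim43b was lower in MG-cKO than in BMM-cKO males, by -0.64 ± 0.10 (adjusted p = 3.42e-05). Against WT males, the changes of Pmch, Hcrt, Pdyn and Bmper were 2.89, 2.20, 0.53 and 0.47 in MG-cKO males, beside 1.48 ± 0.24, 1.08 ± 0.52, 0.50 ± 0.11 and 0.50 ± 0.08 in BMM-cKO males. Every target called in MG-cKO males other than Hcrt was also called in BMM-cKO males against WT, in the same direction. Most of them changed more there, such as Trim43b (1.10 in BMM-cKO, 0.46 in MG-cKO) and Zfp385b (-0.76 and -0.43). Pmch and Pdyn were among those that changed less. The BMM-cKO male libraries were larger, with 6672788 to 10779960 tags, against 1839154 to 4589359 in MG-cKO and WT males. Log2 signals of the probes for keratin-associated proteins and for receptors of smell, taste and the vomeronasal organ spread more widely in them. Their SD per region was 0.380 to 0.411, against 0.264 to 0.340 in MG-cKO and WT males. Whether depth or spread enters the sizes of these changes was not tested. The 2 sets of changes share their WT regions, and in BMM-cKO males 53.6% of all tested targets were called against them.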

How the data were processed

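GEO's labels gave the groups, and the 24 regions fall into 6 groups of 4. The authors deposited 1 signal value per probe target and region, per the file headers. The deposited signal of each region lay on whole multiples of 1 step, taken here as 1 barcode tag (at least 99.98% of values within 0.01 of a whole number). The lowest values lay well above 1 step, so whole reads did not count as recovered, and tag numbers and counting errors here are inferred. The signal's geometric mean was equal within a group but not between groups, so values were compared only after rescaling. No counting software, normalization or genome build is given in the sources used here, and no coordinates or sequences are printed. Of the columns, 12 belong to no sample used here and were left out.

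Levels are the signal over the region's negative probe. For tests, log2(signal + 1) was centred on each region's median over the 9981 of 19962 targets above the median target, and fitted with limma 3.58.1 in R 4.3.3 (intensity trend, 6 group coefficients over 24 regions, Benjamini-Hochberg adjusted p under 0.05). All groups therefore share 1 estimate of the spread, and no label gives an animal to block on. Single region measures were compared by an exact permutation test over 70 regroupings. The procedure was tested on simulated data. At the median target the tags give a counting error of 6.74% to 10.7% of the level per male MG-cKO or WT region, which covers counting only.

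The comparison, gene lists and tests were chosen with earlier results of these data known. Genes named were the 16 largest called rises and all called falls, called list members, called targets above 1.5 times the negative probe, Lyn, Aif1, Tmem119, Pmch and Hcrt, the 3 largest uncalled changes each way, and list members picked, with their values known, from the 4 of highest level per list. Avp and Tac2 are outside this rule. Alternatives were another pseudocount, other filters and scalings, other regions in the fit, region weights, no trend and each region left out with the same targets. The male knockout comparison was recomputed without filter, with quantile normalization and without each MG-cKO region. A few targets of the lists are not reported by name here.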

Additional observations from a re-analysis of the deposited data

Results flagged for a closer look

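In 4 places 1 of the 4 regions of a group lay far from the other 3. These were Zmynd12 in MG-cKO region 4 (1.49 times the negative probe), Scg2 in MG-cKO region 4 (7.27 times), Fyn in MG-cKO region 1 (1.53 times) and Aipl1 in WT region 3 (0.661 times). In all, 130 groups of levels were examined in this way, and chance flags about 1 in 20 groups.

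The difference between the male and the female change of MG-cKO over WT passed the limma test for 45 genes named in the report. Over all tested targets it passed for 27.1%. Many of the 45 were named for their male change, which enters the difference, so their count is a description only. Sex and scan cannot be told apart in the difference, and regions that share an animal would make its p-values too small. The values below are log2 changes in males minus log2 changes in females. Among the peptide genes it was 2.80 for Pmch, 2.33 for Hcrt, 1.28 for Pdyn, 1.10 for Cartpt, 1.72 for Penk, 1.35 for Tac1 and -1.29 for Chgb. Among the other targets called higher in males it was 0.35 for Bmper, 0.59 for Vmn1r198, 0.79 for Trim43b, 0.66 for Gm20764, 0.36 for Snx12, 0.66 for Trat1 and 0.71 for Trim15. It was 0.44 for Ssx2ip, 0.63 for Tpst1, 0.55 for Wnt11, 0.60 for Vmn2r109, 0.51 for Vps37b, 0.47 for Als2cl and 0.75 for Bcl2. It was 0.51 for Rhox7a, 0.55 for Stard3nl, 0.61 for Pawr, 0.78 for Vmn2r107 and 0.62 for Gm21188. Among those called lower in males it was -0.87 for Zfp385b, -0.37 for Dzip1 and -0.48 for Osbp.

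Microglial genes differed by 0.71 for Aif1, 0.48 for C1qb, 0.63 for Ctss and 0.46 for Csf1r. Inflammatory and BMP genes differed by 0.49 for Relb, 0.58 for Ifit3 and 0.54 for Bmp5. Neuronal genes differed by -2.22 for Snap25, -2.97 for Nrgn, -1.07 for Gad1 and -0.31 for Slc6a4. The remaining values were 0.75 for Aipl1, -1.52 for Sparcl1, -0.51 for Tjp1, -0.92 for Cox4i1 and -0.70 for Hsp90ab1. The cause of these differences was not tested.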

How the results depend on the processing

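The 44 higher and 4 lower calls depended on the processing. With targets above 1.5 times the negative probe (2362 targets) there were 1 (Pmch) and 0. That filter used the mean over all 24 regions. Pmch passed it through MG-cKO and BMM-cKO males (means 7.14 and 2.70), against means of 0.702 to 0.891 in the other groups. Its call in that fit is therefore no separate support. With division by the negative probe there were 2 (Pmch and Bmper) and 0, and on the deposited scale 8039 and 0. Quantile normalization gave 97 and 36, subtraction of the negative probe 288 and 13, the 8 regions alone 5 and 3, the 12 regions of the second scan 142 and 45, and region weights 152 and 24. Without the filter there were 38 and 2 calls, and without the intensity trend 39 and 1. Leaving out 1 region gave 1 to 263 higher and 0 to 56 lower calls. The count of 2702 for the difference between males and females was 1222 with the level filter and 1522 with the negative probe subtracted, and 2261 to 2815 with 1 region left out. Pmch kept its call in all 11 alternatives and 8 fits with a region left out. On the deposited scale the sign turned for Osbp (0.000889), Zmynd12 (0.00924), Lyn (0.306), C1qb (0.287) and Csf1r (0.304), where the median target itself shifted by 0.32. A sign was counted as turned only where the change passed the test in 1 of the fits. Of the other alternative values of named genes, 898 kept their side of the threshold, 209 lost and 39 gained a call. The difference in the share of targets at levels above 2 ranged from -0.256 to 0.561 percentage points with 1 region left out, and passed in none. edgeR and DESeq2 on recovered tags were planned and not run, since the deposited values did not pass the check for whole reads. No paired analysis was possible because region numbers are in accession order and the groups share none in their labels. Tags at background limit what low targets can show.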
